A study of Mus musculus with 5 samples.

Results

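The regions described here are the intergenic ZFP24 peaks of mouse oligodendrocyte progenitor cells (OPC) that had no overlapping peak in differentiated oligodendrocytes (OLG). They were chosen by the positions in the deposited peak lists. A peak was kept when it had no base in common with any OLG peak, its centre lay more than 1 kb from every protein-coding transcript start, and its centre lay inside no protein-coding gene body of GENCODE M21 basic. This left 1316 of 4643 OPC peaks, or 28.3% (exact Clopper-Pearson 95% interval 27.1 to 29.7), of 6395 peaks in both lists. The choice used the presence of a peak in the OPC list, its absence from the OLG list and its distance from genes, so these are a description and not a result.

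ZFP24, also called ZFP191, is a zinc finger transcription factor needed for oligodendrocytes to mature and form myelin, the lipid sheath of axons. Chromatin immunoprecipitation sequencing (ChIP-seq) with an antibody against human ZNF24, its orthologue, marks the genomic fragments it sits on. Away from promoters such sites often fall in enhancers, stretches of DNA that act on a gene from a distance, and the gene an intergenic site acts on cannot be read from its position. Tandem TCAT repeats are among the sequences to which the protein is known to bind.

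The series held 5 libraries from brain cells of C57BL/6 mice at postnatal day 7, with 1 library each for wildtype OPC, Zfp191-null OPC, wildtype OLG, Zfp191-null OLG and an input that pooled wildtype and null cells of both types. OPC were isolated by immunopanning, and OLG were such cells after 5 days without PDGF and with 40 ng/ml triiodothyronine, the thyroid hormone that drives their differentiation. No other allele is stated for these cells, and it is not stated whether peaks were called against the null cells or the input. The deposited values were 2 lists of positions, with 4643 peaks 209 bp wide in OPC and 1752 peaks 221 bp wide in OLG, without scores or read counts. The depth of the libraries is unknown, no list has a replicate, and the tests below compare lists of peaks and not replicated conditions. All intervals reflect only counting error over the units counted, which are peaks, genomic TCAT tracts or genes. The background signal at each peak in null cells and input was not analysed here, and a peak list measures no RNA, so the labelled cell type could not be checked against marker expression.

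The edge of the selection was sharp only in part. The members closest to a protein-coding start lay 1065 bp from Rap2a, 1072 bp from Sertad2 and 1073 bp from Qrfpr, while the farthest of the 272 OPC-only peaks left out by the 1 kb limit alone lay at 1000 bp. The member closest to an OLG peak was 5 bp from it, and the smallest overlap among the 46 shared intergenic OPC peaks was 19 bp. An OLG peak lay within 500 bp of 10 members and within 1 kb of 16, of which 4 held a TCAT tract. The median gap to the nearest OLG peak was 345 kb.

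The longest tandem TCAT tracts are printed first, although most members held none of 12 bases or more. The share of peaks with one was 13.7% in the members and 12.2% in all OPC peaks. The windows below are 200 bases around the peak centre, 5′ to 3′ on the + strand of mm10 (GRCm38), with the longest tandem TCAT tract in capitals. The first 4 hold the longest tracts found within the windows of the members. The fifth is the member nearest Sox10, the transcription factor gene that drives the oligodendrocyte programme, and it shows a short tract amid interrupted copies of the same unit.
Id2 side, chr12:25383664-25383863: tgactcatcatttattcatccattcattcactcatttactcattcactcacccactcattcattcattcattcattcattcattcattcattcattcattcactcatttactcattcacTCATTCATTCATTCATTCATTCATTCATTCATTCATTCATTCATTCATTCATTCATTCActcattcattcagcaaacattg
Sez6l side, chr5:112603074-112603273: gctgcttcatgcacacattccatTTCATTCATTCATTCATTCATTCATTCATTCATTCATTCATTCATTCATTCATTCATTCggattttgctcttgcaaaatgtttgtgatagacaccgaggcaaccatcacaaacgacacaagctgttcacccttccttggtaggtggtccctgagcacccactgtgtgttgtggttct
Fam43b side, chr4:138389212-138389411: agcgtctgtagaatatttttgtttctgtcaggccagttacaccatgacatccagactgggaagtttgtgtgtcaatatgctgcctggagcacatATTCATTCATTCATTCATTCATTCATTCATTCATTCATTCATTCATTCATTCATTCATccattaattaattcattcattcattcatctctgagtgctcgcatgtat
Id1 side, chr2:152733880-152734079: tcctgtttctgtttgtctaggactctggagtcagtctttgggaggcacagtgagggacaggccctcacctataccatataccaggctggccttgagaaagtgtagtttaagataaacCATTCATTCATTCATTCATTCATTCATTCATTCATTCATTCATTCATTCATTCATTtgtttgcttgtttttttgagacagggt
Sox10 side, chr15:79171856-79172055: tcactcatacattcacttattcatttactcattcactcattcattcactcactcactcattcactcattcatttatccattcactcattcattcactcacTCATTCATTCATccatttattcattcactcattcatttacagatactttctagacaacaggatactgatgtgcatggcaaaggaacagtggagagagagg

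Tandem TCAT of at least 12 bases, in any phase and on either strand, lay in 180 of the 1316 members, or 13.7% (11.9 to 15.7), and in none of their right flanks, windows of the same width 2 kb away. A count of 0 in 1316 flanks allows a share of up to 0.228%. The background was 12.2% for all OPC peaks and 0% for the right flanks of the members. In the exact McNemar test 180 members held the tract where the flank did not, against 0 the other way (two-sided p = 1.31e-54), and the left flanks held 3. The tracts ran from 12 to 59 bases with a median of 29, and 13 members had 48 bases or more. The middle of the tract lay a median of 37.5 bp from the peak centre, and within 50 bp in 113 of 180. On the + strand 89 of the 180 windows carried only the TCATTCAT form and 89 only its complement ATGAATGA.

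The share of peaks with a tract differed from class to class. Promoter peaks of the OPC list that were absent from OLG held it in 24 of 1499, or 1.60% (1.03 to 2.37), so the odds in the members were higher by a ratio of 9.73 (6.28 to 15.7; p = 2.97e-37 in a two-sided Fisher's exact test after Benjamini-Hochberg adjustment over 4 comparisons). OPC-only peaks in gene bodies held it a little more often than the members, in 268 of 1574 or 17.0% (15.2 to 19.0), with an odds ratio of 0.772 for the members (0.625 to 0.952; adjusted p = 0.0133 by the same exact test). This call was lost with a minimum of 8 bases (0.833; adjusted p = 0.0571 in the exact test) and when starts and bodies of all annotated genes were used (0.825, adjusted p = 0.0860).

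The largest contrast was with the intergenic OPC peaks that also overlapped an OLG peak. There 35 of 46 held the tract, or 76.1% (61.2 to 87.4), which put the odds ratio of the members at 0.050 (0.0225 to 0.103; adjusted p = 4.05e-20, exact test). Intergenic peaks of the OLG list alone held it in 6 of 321, or 1.87% (0.689 to 4.02), against which the members had an odds ratio of 8.31 (3.69 to 23.2; adjusted p = 8.90e-12, exact test). The last comparison is between 2 lists of different length from different libraries, so cell type, library and calling cannot be told apart. The same holds for the shared peaks, because overlap with the single OLG list separates them from the members.

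**Figure D1:**
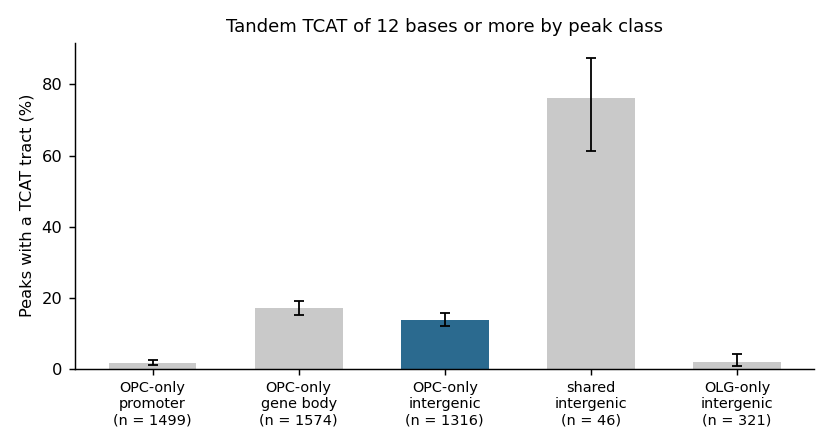
Share of peaks with a tandem TCAT tract of 12 bases or more in 5 classes of peak; bars are percentages and error bars are exact 95% intervals over peaks. The OPC-only intergenic peaks stand at 13.7%, near the 17.0% of gene-body peaks, above the 1.60% of promoter peaks and the 1.87% of OLG-only intergenic peaks, and below the 76.1% of shared intergenic peaks.

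Seen from the genome, the share of intergenic tracts with a member was larger for longer tracts. The intergenic part of chromosomes 1 to 19 and X under the same rule contained 9231 such tracts, here measured at full length. A member's centre was no more than 100 bp away from 244 of them, and the centre of any OPC peak from 295. For tracts of 12 to 15 bases a member was present at 1.09% (0.839 to 1.39), for 24 to 31 bases at 4.75% (3.61 to 6.13) and for 32 to 47 bases at 11.1% (8.65 to 13.8). Of the 43 intergenic tracts of 48 bases or more, 14 were at a member, or 32.6% (19.1 to 48.5), and 3 were at an OLG peak. The other tracts of this length, including those at shared sites, had no member.

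With every OPC peak counted, intergenic tracts of up to 47 bases were at a peak less often than tracts of like length in promoters and gene bodies, in a comparison chosen after the shares were seen. At 24 to 31 bases the shares were 5.86% (4.59 to 7.35) of 1178 intergenic tracts and 10.9% (9.14 to 12.9) of 1088 others, with an odds ratio of 0.507 (0.366 to 0.697; adjusted p = 3.14e-05 over 5 lengths, Fisher's exact test, two-sided). At 32 to 47 bases they were 13.1% (10.5 to 16) and 24% (20.5 to 27.7), with a ratio of 0.477 (0.346 to 0.654; adjusted p = 8.05e-06, exact test). At 48 bases or more they were 39.5% (25 to 55.6) and 48.5% (30.8 to 66.5), and the interval of the ratio, 0.252 to 1.92, includes 1 (exact test, adjusted p = 0.489). Tracts were not matched on GC content around them or on the distance to the next peak. Several tracts can lie at the same peak, as in the Id2 window, so tracts are not independent. The intervals and p-values over tracts may therefore be too narrow. Among intergenic tracts of 24 bases or more, the share at a member was 11.9% (5.86 to 20.8) at 1 to 5 kb from a start, 9.53% (7.09 to 12.5) at 10 to 50 kb and 5.59% (4.15 to 7.35) beyond 100 kb.

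**Figure D2:**
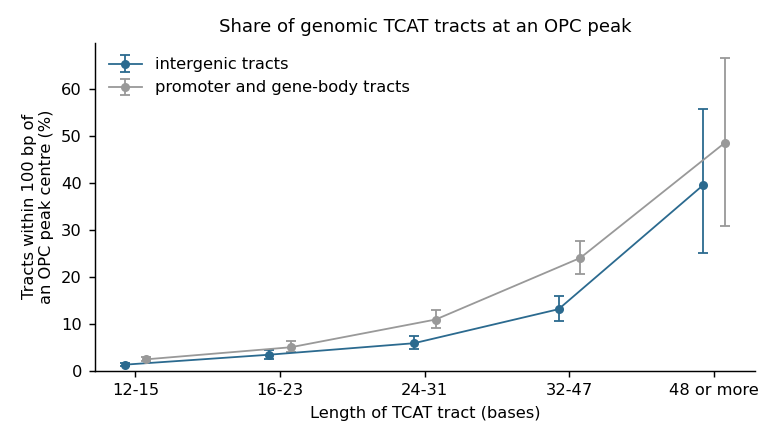
Percentage of genomic TCAT tracts (vertical axis) that lie within 100 bp of the centre of any OPC peak, by tract length in bases, for intergenic tracts and for tracts in promoters and gene bodies; error bars are exact 95% intervals over tracts. Both series climb with length, to 39.5% and 48.5% at 48 bases or more, and the intergenic points lie lower at every length, with intervals apart at 12 to 15, 24 to 31 and 32 to 47 bases.

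Most members, 1136 of 1316, had no such tract, and for weaker forms of the repeat no difference from the flanks was detected. Among these 1136, a shorter tract of 8 to 11 bases was in 50 members and 48 right flanks. At least 4 copies of TCAT on 1 strand were in 49 members, or 4.31% (3.21 to 5.66), and in 42 right flanks, or 3.70% (2.68 to 4.96), where the exact McNemar test gave p = 0.505 (44 against 37 discordant pairs). The median GC content was 49.0% in members without a tract and 41.2% in members with one, where the tract itself is low in GC.

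Over all members the median GC content of the 200 bases was 48%, against 46.0% in the right flank, and the member was higher in 803 pairs and lower in 483 (exact sign test, two-sided p = 3.84e-19; median difference 2.50 percentage points). The OPC-only promoter peaks had a median of 63.5%. A window with at least 50% GC and an observed to expected CpG ratio of at least 0.6, the composition of a CpG island, was found in 84 members, or 6.38% (5.12 to 7.84), in 21 right flanks, or 1.60%, and in 70.4% (68.1 to 72.7) of the OPC-only promoter peaks. None of the 180 members with a tract had it. Bases marked as repeats in the genome sequence made up a median of 34.2% of a window with a tract and 10.5% of one without. The tract is itself a repeat without a CpG, so these differences follow in part from the split. The number in the peak name, which has no stated meaning, had a median within-chromosome percentile of 14.7 in members with a tract and 55.7 in members without.

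Of 14 motifs of other factors searched on both strands, 1, or 7.14%, was in more members than right flanks after adjustment, and 0, or 0%, in fewer (exact McNemar test, Benjamini-Hochberg adjustment; 1 motif had an unadjusted p under 0.05). This was CCGGAA, the core bound by ETS factors, in 51 members, or 3.88% (2.90 to 5.06), and 20 flanks, or 1.52% (51 against 20 discordant pairs, adjusted p = 0.00424 in the exact test). Against the left flanks, with 27, the call was lost (exact McNemar adjusted p = 0.123). It was in 13.5% of the OPC-only promoter peaks, in 7.02% of all OPC peaks and in 3.05% of the OPC-only gene-body peaks. CCGGAA holds a CpG, as did 156 of the 245 words of 6 letters that were higher in members without a tract, described below. The part of this general CpG difference in the motif call was not tested. The E-box CAGCTG, a motif of basic helix-loop-helix factors, was in 10.2% of the members and 8.13% of right flanks (exact McNemar test, adjusted p = 0.408), and against the left flanks, at 11.3%, the difference had the opposite sign. ACAANG, a SOX motif, was in 37.9% and 36.2% (adjusted p = 1.00), the short NFI motif TTGGCA in 12.1% and 9.95% (adjusted p = 0.408), and the AP-1 motif TGANTCA in 7.98% and 6.99% (adjusted p = 1.00), all by the exact McNemar test. The remaining motifs were the CRE TGACGTCA, the GC box GGGCGG, TEAD ACATTCC and YY1 AAGATGGC. By name alone they were the palindromic NFI site, the CTCF core, NRF1, ZBTB33 and RFX. None of these passed. The palindromic NFI site, ZBTB33 and RFX were in 0 members and 0 right flanks, NRF1 in 1 and 1, and the CRE in 3 and 2. These motifs were too rare for a call in either direction.

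Over all 2080 words of 6 letters, with each word joined to its complement, members without a tract differed from their flanks in G and C content. In the exact McNemar test with Benjamini-Hochberg adjustment 245 words, or 11.8%, were in more members than right flanks and 139, or 6.68%, in fewer. Of the 245, 156 held a CpG, where 604 of the 2080 words do, and 161 were also called against the left flanks. None of the 139 held a CpG. The words that were higher had a median GC content of 66.7% and the lower ones 16.7%. CAGCAG was in 26.8% of members and 16.5% of flanks (exact test, adjusted p = 3.23e-07), CGCTGC in 6.60% and 1.76% (1.88e-07), and AAATAA in 13.2% and 23.8% (1.07e-08). None of the 245 was a stretch of tandem TCAT.

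Intergenic sites lay closer to genes than intergenic sequence does. The distance from the peak centre to the nearest protein-coding start had a median of 47 kb, with quartiles of 16.2 and 148 kb and a maximum of 1919 kb. Within 100 kb of a start lay 878 members, or 66.7% (64.1 to 69.3). By class, 96 members were at 1 to 5 kb, 117 at 5 to 10 kb, 470 at 10 to 50 kb, 195 at 50 to 100 kb and 438 beyond. The 1507 Mb that meet the same intergenic rule were counted base by base for comparison. The class of 1 to 5 kb held 7.29% (5.95 to 8.84) of the members and 4.55% of these bases, 10 to 50 kb held 35.7% (33.1 to 38.4) and 23.2%, and the class beyond 100 kb held 33.3% (30.7 to 35.9) and 53.4%. Per Mb this was 1.40, 1.5, 1.35, 0.945 and 0.544 members from the nearest class to the farthest. The median GC content of the members was 49.0% at 1 to 5 kb and 46% beyond 100 kb, and its part in this difference was not tested. The share with a tract was 14.6% (8.21 to 23.3) at 1 to 5 kb, 17.1% (10.8 to 25.2) at 5 to 10 kb, 13% (10.1 to 16.4) at 10 to 50 kb, 10.8% (6.79 to 16) at 50 to 100 kb and 14.6% (11.4 to 18.3) beyond 100 kb, with intervals that overlap.

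**Figure D3:**
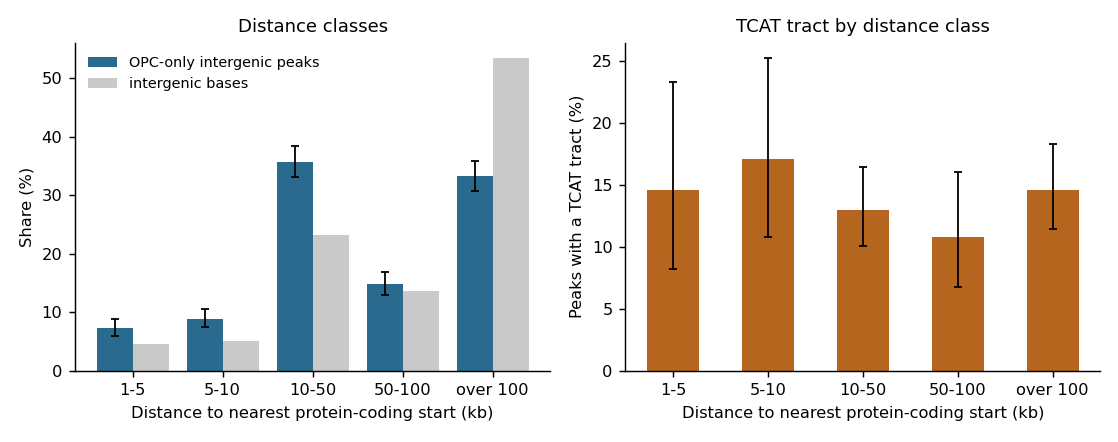
Left, percentage of the 1316 OPC-only intergenic peaks and of all intergenic bases in 5 classes of distance to the nearest protein-coding start, in kb; right, percentage of the peaks of each class with a TCAT tract. Error bars are exact 95% intervals over peaks; peaks exceed bases in the classes up to 100 kb, with intervals clear of the base share up to 50 kb, then stand at 33.3% against 53.4% beyond 100 kb, and the tract share stays between 10.8% and 17.1%.

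OLG-only intergenic peaks had a start within 10 kb more often than the members. A start was within 10 kb of 213 of the 1316 members, or 16.2% (14.2 to 18.3), and of 86 of 321 OLG-only intergenic peaks, or 26.8% (22.0 to 32), for an odds ratio of 0.528 (0.393 to 0.713; adjusted p = 4.97e-05 over 2 comparisons, Fisher's exact test). With starts and bodies of all annotated genes the ratio was 0.728 and the call was lost (exact test, adjusted p = 0.0636). For the shared intergenic OPC peaks it was 10 of 46, or 21.7% (10.9 to 36.4), with an odds ratio of 0.695 and an interval of 0.332 to 1.60 (exact test, adjusted p = 0.312), which leaves room for a difference in either direction. Both comparisons rest on the single OLG list, so here too cell type, library and calling cannot be told apart.

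Position relative to the flanking genes followed the layout of intergenic sequence. The member was upstream of its nearest start in 821 cases, or 62.4% (59.7 to 65.0), where 61.1% of intergenic bases are upstream of theirs. Neighbouring starts pointed away from each other around 397 members, or 30.2% (27.7 to 32.7; 28.9% of bases), towards each other around 260, or 19.8% (17.6 to 22.0; 18.3%), and the same way around 658, or 50% (47.3 to 52.7; 52.5%). Both neighbouring starts were within 100 kb for 470 members, only 1 for 408 and neither for 438, and the farther neighbour was at a median of 173 kb. The sites were spread over 1079 nearest genes. On chromosomes 1 to 19 the density ran from 0.643 members per Mb on chromosome 16 to 1.36 on chromosome 11, and on chromosome X it was 0.0763, with 9 members.

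Non-coding genes covered part of this sequence. The centre of 235 members, or 17.9% (15.8 to 20.0), was inside a non-coding gene, most often a lincRNA (151 members), and 95 members, or 7.22% (5.88 to 8.75), were within 1 kb of a non-coding start. No annotated gene body and no annotated start within 1 kb was found for 1048 members, or 79.6% (77.4 to 81.8). No like share of intergenic bases is given here, so a difference from the layout was not tested.

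Most members had no other member within 10 kb. The mean density was 0.873 members per Mb of intergenic sequence. The share that even spacing would give was not computed, and no like share is given for other classes of peak. Another member lay within 10 kb of 94, or 7.14% (5.81 to 8.67), in 46 chains, of which 2 had 3 members. These were on chromosome 3, 7242 to 18032 bp from Lekr1, and on chromosome 9, with the nearest 26425 bp from Oaf. The members fell in 1028 gaps between protein-coding genes, 834 of them with a single member. The gaps with most members held 6 each: between Ralgapa2 and Kiz on chromosome 2 (344 kb wide), Rps24 and Zmiz1 on chromosome 14 (962 kb), Kif2a and Ndufaf2 on chromosome 13 (981 kb), and Tmem38b and Zfp462 on chromosome 4 (1083 kb). Of these, only the Tmem38b gap had a member with a tract, and it had 1. A further 5 gaps held 5 members each, between Kazn and Prdm2 (868 kb), Csnk1g3 and Zfp608 (932 kb), Zfp608 and Gramd3 (1408 kb), Dhx35 and Gm826 (1453 kb) and Auts2 and Castor2 (1556 kb). The Auts2 gap had 2 members with a tract, the Kazn and Dhx35 gaps 1 each and both Zfp608 gaps 0. The members farthest from any start were 1919438 bp from Cntnap5b, 1640249 bp from Tenm2 and 1591304 bp from Tenm3, and none of these 3 held a tract.

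For the neighbouring genes, a gene was counted when its start was the nearest protein-coding start to the left or right of a member and within 100 kb. This held for 1173 of 21644 genes, or 5.42%, of which 228 had the member within 10 kb. The 13 gene lists used here were chosen with earlier results of these data in view, and they are described by their counts without a test. Genes in wide gaps have more room for a member, so the number of gene and member pairs per Mb of intergenic sequence in reach is given too. It was 1.31 over all genes.

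The highest shares were those of progenitor markers, the Notch, Wnt and BMP list, homeodomain factors and lineage regulators. Of the other lists, only the myelin, neuronal and vascular ones stood below the 5.42% of all genes. Lineage regulators were neighbours in 9 of 50 cases, or 18% (8.58 to 31.4), with 2.82 pairs per Mb. Progenitor markers followed with 7 of 30, or 23.3% (9.93 to 42.3; 3.91 per Mb), the Notch, Wnt and BMP list with 11 of 50, or 22.0% (11.5 to 36.0; 3.14), and homeodomain and other developmental factors with 13 of 64, or 20.3% (11.3 to 32.2; 2.47). Cell cycle genes had 5 of 38, or 13.2% (4.41 to 28.1; 3.65), growth factor signalling 5 of 47, or 10.6% (3.55 to 23.1; 1.58), and axon guidance and adhesion genes 6 of 62, or 9.68% (3.63 to 19.9; 1.16). Myelin and mature oligodendrocyte genes had 1 of 40, or 2.50% (0.0633 to 13.2; 0.479 per Mb), and cholesterol and lipid synthesis genes 2 of 30, or 6.67% (0.818 to 22.1; 1.22). Of other brain cells, neuronal markers had 1 of 24 (0.458 per Mb), astrocyte markers 1 of 17 (0.880), microglial markers 1 of 16 (3.23) and vascular markers 0 of 19 (0), with an upper bound of 17.6%. The order by pairs per Mb was not the order by share of genes. The axon guidance, lipid synthesis and astrocyte lists were above all genes by share but below their 1.31 pairs per Mb. The microglial list, with 2 pairs in 0.619 Mb, and the cell cycle list stood above lineage regulators, the Notch, Wnt and BMP list and homeodomain factors on that measure. The intervals make no call on any list, because the lists were chosen with earlier results of these data in view. Room also differed between lists. The median intergenic reach per gene was 100 kb for lineage regulators and 103 kb for homeodomain factors, against 30.4 kb over all genes.

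**Figure D4:**
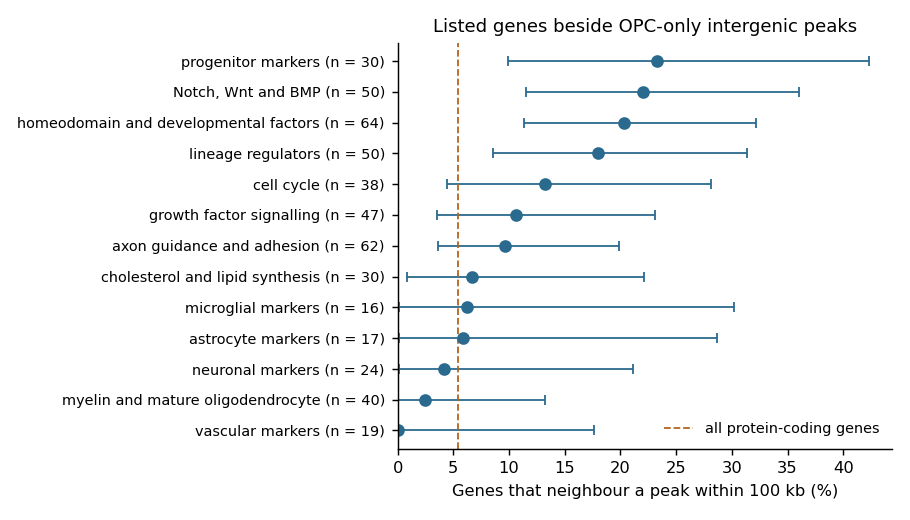
Percentage of the genes of each list (horizontal axis) whose start is the nearest on 1 side of an OPC-only intergenic peak and within 100 kb; points are percentages, error bars exact 95% intervals over genes, and the dashed line is the 5.42% of all protein-coding genes. Progenitor markers, at 23.3%, stand highest, and vascular markers, at 0%, lowest.

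Among lineage regulators, Olig2, whose basic helix-loop-helix product specifies the oligodendrocyte lineage, had a member 5281 bp upstream (chromosome 16, 91220072 to 91220280). This window held no tract and had a GC content of 63.0%; its other neighbour, 4932438H23Rik, was 151031 bp away. It is printed as a member without the repeat at a gene that defines the lineage, so that no letter stands in capitals.
Olig2 side, chr16:91220076-91220275: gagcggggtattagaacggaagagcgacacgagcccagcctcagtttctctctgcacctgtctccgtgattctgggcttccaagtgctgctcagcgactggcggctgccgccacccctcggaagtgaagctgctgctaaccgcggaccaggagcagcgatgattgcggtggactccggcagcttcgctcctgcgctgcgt
Olig1, the adjacent gene of the same family, had 4 members within 100 kb of its start, the nearest 40750 bp downstream in the non-coding gene Gm15966 (91310418 to 91310626), then 59694 and 76556 bp downstream towards Ifnar2, besides the one at Olig2. None of the 4 held a tract. Sox10 had 1 member, 6716 bp upstream in the non-coding gene Gm10863 (chromosome 15, 79171852 to 79172060), with a tract of 12 bases and Pick1 as its other neighbour at 57217 bp.

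Sox4, a SOX gene expressed in immature cells, had 3 members, 4286 bp upstream (chromosome 13, 28957895 to 28958103) and 11309 and 77422 bp downstream. Klf9, a gene induced by thyroid hormone, had 1 at 5949 bp upstream. Tcf12, whose product pairs with OLIG2 and other helix-loop-helix factors, had 2, at 20983 and 26178 bp upstream. Zeb2 and Tcf7l2, regulators of later maturation, had 1 each at 41659 and 43569 bp upstream, and the Tcf7l2 member held a tract of 20 bases. Of the 4 lineage regulators with a member within 10 kb, the 3 besides Sox10 had no tract.

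The Id genes, which encode helix-loop-helix proteins that lack a DNA-binding region and hold back factors such as OLIG2, were singled out after their values were seen. Id1 had a member 2271 bp upstream (chromosome 2, 152733876 to 152734084) with a tract of 56 bases (152733997 to 152734052), the window printed above, and Mcts2 was its other neighbour at 46945 bp. The member with the 59-base tract at 25383660 to 25383868 on chromosome 12 had Id2 as its nearest gene, but at 286624 bp, with Rnf144a at 1031452 bp on the other side. Id3 had 2 members, at 38292 and 63067 bp upstream, and Id4 had 1 at 31369 bp upstream, and these 3 held no tract. The Id3 member at 63067 bp was closer to Rpl11. Beyond 100 kb, as for the Id2 member, Id4 was also the nearest gene of members at 114225 and 218715 bp, which held no tract either.

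Progenitor markers with a member included Megf11, a cell surface receptor gene, at 1838 bp upstream, Rlbp1 with 2 at 14121 and 15634 bp downstream, Lhfpl3 at 14497 bp upstream and Ccnd1, the gene of the G1 cyclin D1, at 32318 bp upstream. The Ccnd1 member (chromosome 7, 144972083 to 144972291) held a tract of 51 bases. Pdgfra, the receptor gene for the progenitor mitogen PDGF, had 1 member within 100 kb, 82383 bp downstream (chromosome 5, 75238178 to 75238386), between it and Kit, whose start was 336634 bp away. For Cspg4, the NG2 proteoglycan gene, the closest member was at 79687 bp and had Imp3 and Snupn as its neighbours. The myelin list was represented by Mobp, with a member 42568 bp downstream. Myrf, a regulator of myelin genes, Mbp, which encodes myelin basic protein, and Zfp24 itself had none within 100 kb, with the closest at 247650, 183591 and 3895811 bp.

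**Figure D5:**
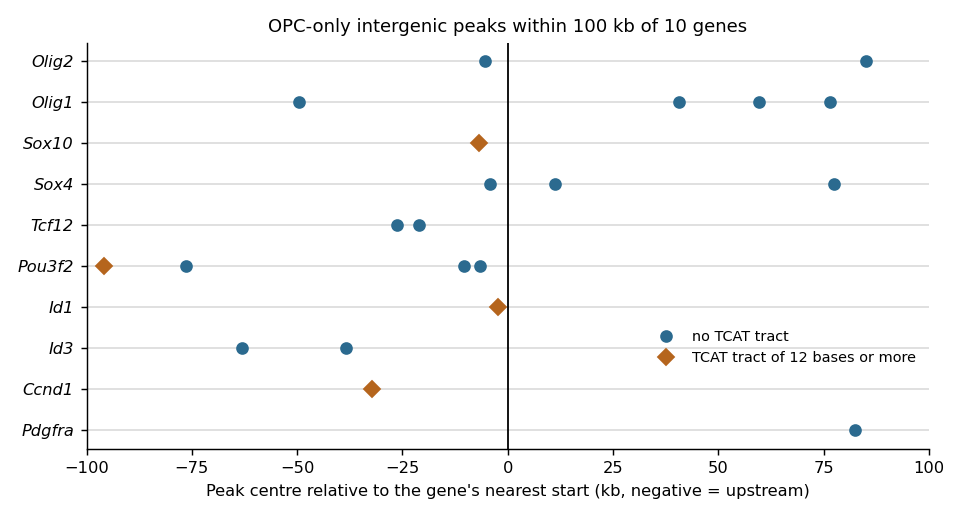
Centres of OPC-only intergenic peaks within 100 kb of 10 genes, in kb from the gene's nearest protein-coding start along the direction of transcription, with negative values upstream; diamonds mark peaks with a TCAT tract of 12 bases or more and circles those without. Sox10, Id1 and Ccnd1 each have a single peak and it holds a tract, Olig1 has 4 and Sox4 has 3 without one, and the tract peak of Pou3f2 is its farthest.

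In the signalling lists the closest members, besides Id1, were those at Dll4, a Notch ligand gene, 3436 bp upstream within the non-coding gene Gm14207, at Lef1, a transcription factor gene of the Wnt pathway, 3702 bp upstream, and at Dkk1, the gene of a secreted Wnt inhibitor, with 2 at 4424 and 11180 bp upstream. Notch3 had 1 at 12728 bp upstream, which was closer to Ephx3 (9883 bp). Among growth factor genes, Pdgfa, the ligand gene of PDGFRA, had 2 members, at 15404 bp upstream and, with a tract of 37 bases, at 97731 bp downstream. The Pdgfa member at 97731 bp was closer to Gm5294. Dusp6 had 1 at 53673 bp and Igf2 1 at 77062 bp, though the Igf2 member was closer to Mrpl23 (46622 bp).

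The cell cycle list was led by inhibitors of cyclin-dependent kinases. Cdkn2c had 2 members, 1157 bp upstream and 7560 bp downstream of its start, and Cdkn1b, which encodes the p27 protein of progenitors leaving the cycle, had 2 at 6493 and 39869 bp downstream, all without a tract. The Cdkn1b member at 39869 bp was closer to Apold1. Rb1, the retinoblastoma gene, had 1 at 12059 bp upstream with a tract of at least 30 bases that reached the window edge. E2f1, whose product RB1 binds, had 1 at 15370 bp upstream with 18 bases.

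Of homeodomain and other developmental factors, Barhl2 had 2 members (1300 and 12509 bp upstream), Lmx1a 1 (1777 bp upstream), Foxd3 1 (7205 bp downstream) and Pou3f2, a POU factor gene of neural progenitors, 4. Those of Pou3f2 lay 6677, 10311, 76306 and 95902 bp upstream on chromosome 4, and the farthest held a tract of 23 bases. No listed gene had more, and outside the lists Cd82, Cipc and Lekr1 also had 4. The 2 nearest to Pou3f2 are printed as examples of members without a tract that hold the ETS core on the minus strand. The windows are written on the + strand of mm10, so the capitals mark its complement, TTCCGG.
Pou3f2 at 6677 bp, chr4:22494943-22495142: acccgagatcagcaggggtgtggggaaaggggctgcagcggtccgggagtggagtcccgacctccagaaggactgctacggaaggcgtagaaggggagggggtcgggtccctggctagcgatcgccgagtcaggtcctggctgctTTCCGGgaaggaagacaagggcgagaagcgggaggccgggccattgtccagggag
Pou3f2 at 10311 bp, chr4:22498577-22498776: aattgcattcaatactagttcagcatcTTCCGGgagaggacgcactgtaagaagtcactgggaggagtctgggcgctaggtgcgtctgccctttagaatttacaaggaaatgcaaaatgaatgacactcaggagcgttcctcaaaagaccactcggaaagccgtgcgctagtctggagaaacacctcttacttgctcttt

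In the remaining lists, the nearest members were at Efna2 (10860 bp), Robo3 (20494 bp), Unc5b (47057 bp) and Tenm4 (62281 bp) for axon guidance and adhesion, and at Scd1 (76239 bp) and Elovl5 (98756 bp) for lipid synthesis. The Scd1 member was closer to Wnt8b (9524 bp) and the Elovl5 member to Gclc (64073 bp). Slc1a3, the gene of a glutamate transporter of astrocytes, had a member 8017 bp upstream, Neurod2, a neuronal transcription factor gene, 1 at 12954 bp and Sall1, a transcription factor gene of microglia, 2 at 17717 and 22858 bp. The Neurod2 member was closer to Ppp1r1b (5802 bp). Besides the 4 tracts printed first, the 8 longest included those beside Kirrel (55 bases, 1483 bp upstream of its start, with Fcrls at 87369 bp), Tlr9 (54 bases, 5319 bp upstream, with Twf2 at 10481 bp), Sall1 (52 bases, at 106765 bp) and Ccnd1. The Sez6l tract lay 25989 bp upstream of that gene, with Myo18b at 293188 bp, and an OLG peak lay 38 bp from that member. The Fam43b tract lay 7216 bp downstream of its start, with Cda at 21320 bp.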

How the data were processed

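ChIP-seq reads were single-end and 75 nt long, per the labels' protocols. BWA (version not given), HOMER 4.8.3 and mm10 are named in the submitters' processing notes. Calling options, threshold and the use of null and input libraries are not stated there. The deposited values were peak starts and ends, without a score. Positions are 1-based, and GRCm38.p6 from RefSeq and GENCODE M21 basic gave sequence and genes, with 0 of the peaks past the end of 20 chromosomes. Windows were 200 bp, flanks 2 kb away. The software was pandas 2.3.3, scipy 1.17.1, numpy 2.4.6 and Python 3.11.15. Tests were exact (McNemar, Fisher, sign), two-sided, with Benjamini-Hochberg adjustment at 0.05. The tract search found 200 of 200 tracts planted in 1000 simulated windows. The members and lists were chosen with earlier results of these data known. Named genes were 8 fixed lineage genes, the up to 4 listed genes nearest a member in each list, and neighbours of the 8 longest tracts, the 5 fullest gaps (with the gaps tied for the fifth) and the 3 nearest and 3 farthest members. Other genes, such as further members of a list and genes with 4 members, were named after their values were seen, and some genes the rule names are not reported here. All 481 listed genes were matched.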

Additional observations from a re-analysis of the deposited data

How the results depend on the processing

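Of 59 alternative values, 55 kept their direction and call. The 59 include 4 member counts, which carry no test. They also include 5 values for the distance comparison with shared intergenic peaks, which had no call in the main setting. A further 2 are counts of motifs in fewer members than flanks, which were 0 there and in the main setting. The alternatives varied the minimum tract, the promoter limit, the overlap rule, the genes used, the flank, the window and the distance limit. The lower tract share of members than of OPC-only gene-body peaks was lost at a minimum of 8 bases (odds ratio 0.833) and with all annotated genes (0.825), and so was, with all annotated genes, the lower share of members than of OLG-only intergenic peaks with a start within 10 kb (0.728). The single motif call fell to 0 against the left flank (exact McNemar test, 1 at an unadjusted p under 0.05). The causes were not tested. The number of members ran from 1048 with all annotated genes to 1306, and the tract share from 10.3% to 17.5%. No paired analysis was possible because each group had 1 library. For the same reason no replicate could be left out, and depth is unknown, so how many members are sites just under the OLG threshold was not tested.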
